A study of Mus musculus musculus x M. m. domesticus and Mus musculus musculus x Mus musculus castaneus and Mus musculus domesticus with 42 samples.

Results

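The nuclear-encoded subunits of the mitochondrial respiratory chain were followed in brain, liver and testis of mouse subspecies and their reciprocal F1 hybrids. Members were all probe sets whose single symbol in the platform annotation is Ndufa, Ndufb, Ndufc, Ndufs or Ndufv with a digit (complex I), Sdha to Sdhd (complex II), begins with Uqcr (complex III) or lies between Cox4 and Cox8 (complex IV). The rule uses names only and no measured value. It found 64 of 18193 named genes, read by 133 of 45037 probe sets. Complex I supplied 73 probe sets of 35 genes, complex II 9 of 4 genes, complex III 16 of 8 genes and complex IV 35 of 17 genes. A single probe set read 26 of the genes and 38 had several, so probe sets of a gene could be set against each other. Cox7b, which has no probe set of its own under the rule, was not analysed here.

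The respiratory chain carries electrons from NADH and succinate to oxygen and pumps protons across the inner mitochondrial membrane, and ATP synthase uses the resulting gradient. Complexes I, III and IV are built from subunits encoded in the nucleus and in the mitochondrial genome, whereas complex II is wholly nuclear. Mitochondrial DNA comes from the mother, so reciprocal F1 animals pair a like hybrid set of autosomes with the mitochondria of one or the other subspecies. Several complex IV subunits exist as isoforms: Cox6a2, Cox7a1 and Cox8b are known from heart and skeletal muscle, Cox4i2 from lung, and Cox6b2, Cox7b2 and Cox8c from testis.

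The animals were 14 males from wild-derived inbred lines, 2 of each genotype, and 1 array was run for each tissue of each male. The F1 genotypes were domesticus x musculus at 50 days of age, musculus x domesticus at 53 days, castaneus x musculus at 54 days and musculus x castaneus at 53 days, with the mother named first. The parental genotypes were domesticus at 45 days, castaneus at 47 days and musculus at 47 days. Both parental comparisons used the same musculus arrays. Each genotype had 1 age, and reciprocal F1 males differed in mother, sex chromosomes, mitochondria and age, so these cannot be told apart by design. The labels call the replicates biological and number them as separate males.

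The 42 Affymetrix 430 2.0 arrays carried MAS5 signal, a brightness on a linear scale that had been brought to nearly 1 level (2% trimmed mean 496.87 to 498.59). Array medians ranged from 95 to 183, and replicates of a group correlated at 0.958 to 0.981 over all probe sets. No member value was listed as 0. Marker genes of neurons in brain, hepatocytes in liver, and spermatocytes and spermatids in testis were present on every array of their tissue. Both musculus x castaneus F1 testes stood apart from the other 12: the summed signal of 4 spermatogonial markers was 3462 and 3170 there and 1359 to 1956 elsewhere. One of their livers, replicate 2, had an exocrine pancreas marker sum of 32249, against 936 to 7503 on the other arrays. In whole tissue, fewer cells of a type and less RNA per cell cannot be told apart.

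Differences between groups below are differences of log2(signal + 31), tested with limma over all probe sets that passed a filter on low signal, and members with an adjusted p below 0.05 are said to be called (Benjamini-Hochberg, two-sided). The offset makes differences of dim probe sets smaller than the ratio of their signals. Of the 133 members, 119 passed the filter in brain, 120 in liver, 117 in testis, 113 in every tissue and 121 over all 42 arrays, while 10 passed in no tissue.

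Complex IV isoforms separated testis from brain and liver. Cox6b2, the testis form of a subunit that faces the intermembrane space, had a signal of 9028 to 17970 (median 12058.5) in testis, against 173 to 319 (median 228) in brain and 14 to 124 (median 42.5) in liver. Cox7b2 had 5031 to 7789 (median 6432.5) in testis, against 24 to 69 (median 42.5) in brain and 4 to 41 (median 11) in liver. Cox8c, probe set 1455167_at, had 8244 to 12956 (median 10720.5) in testis, against 645 to 1222 (median 915.5) in brain and 687 to 2259 (median 1344.5) in liver. For each of the 3 genes every testis array was above every array of the other tissues.

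On the log2 scale Cox6b2 was higher in testis by 5.58 (SE 0.137) than in brain and by 7.36 than in liver. Cox7b2 was higher by 6.44 (SE 0.115) and 7.14 in the same order, and Cox8c by 3.43 (SE 0.0941) and 2.91. The largest adjusted p among these 6 differences was 1.02e-23. A second Cox8c probe set, 1443789_x_at, had 363 to 871 in testis, 235 to 798 in brain and 23 to 612 in liver, with overlapping arrays.

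The widely expressed partners of some of these isoforms were low in testis. Cox6b1, the somatic counterpart of Cox6b2, had 1249 to 4155 (median 1751.5) in testis, against 8693 to 12458 (median 10703) in brain and 14803 to 24786 (median 19270) in liver. It was lower in testis by log2 differences of -2.40 from brain and -3.23 from liver. Cox8a, counterpart of Cox8c, had 1059 to 2866 (median 1608) in testis, against 7892 to 12080 (median 10574.5) in brain and 8626 to 15569 (median 12182.5) in liver, with differences of -2.68 and -2.90. Through these probe sets no testis array reached the lowest brain or liver array for either gene. The dim Cox8a probe set 1436409_at differed by -0.08 between testis and brain, with overlapping arrays, and was not called.

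Other complex IV partners differed less between testis and brain. Cox4i1 differed by -0.29, with overlapping arrays. Cox6a1 differed by -0.24 through its brighter probe set, with overlapping arrays, and by -0.79 through 1417418_s_at, where the arrays did not overlap. Cox7a2 was 0.19 higher in testis than in brain and 0.62 lower than in liver (log2 difference -0.62), but after quantile normalization, which gives all arrays the same distribution, these differences were -0.04 and 0.12. Cox7a2l is a factor of supercomplex assembly that is named as a Cox7a isoform. Between testis and brain its probe set 1421772_a_at did not pass the test (-0.10, adjusted p = 0.13 in limma). Its probe sets 1432263_a_at and 1432264_x_at were called lower in testis (-0.24 and -0.26), with overlapping arrays.

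**Figure D1:**
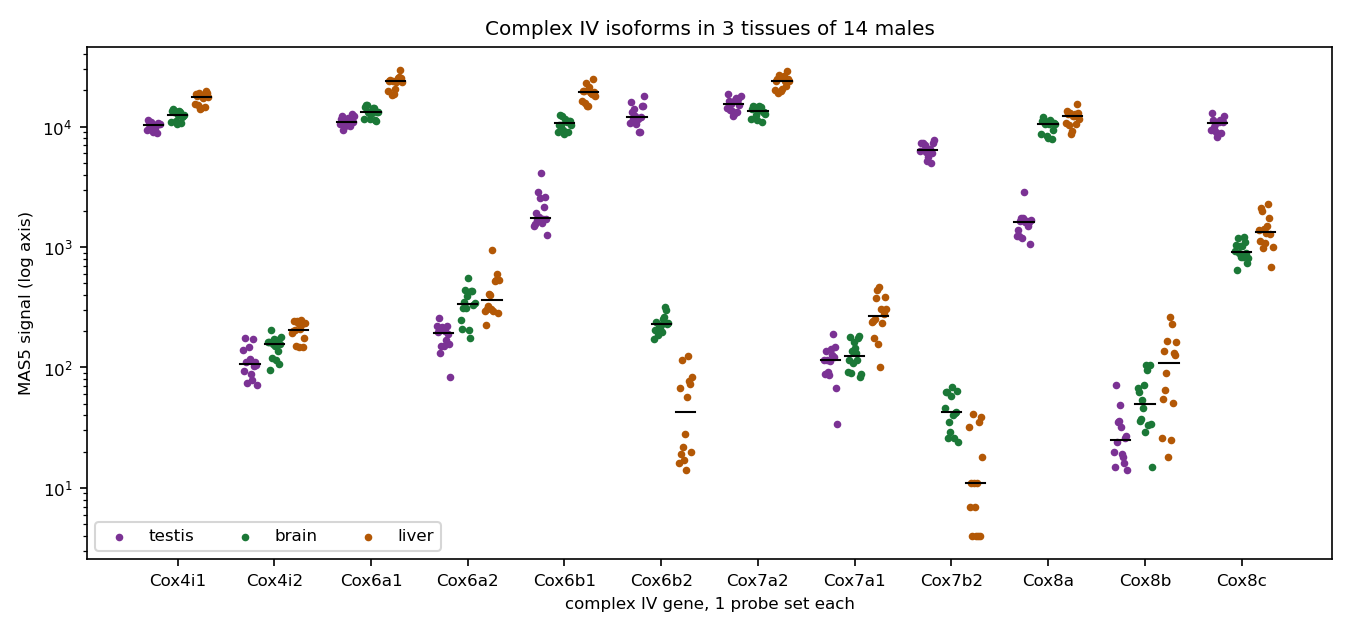
MAS5 signal on a log axis for 12 complex IV genes, 1 probe set each, with the 14 arrays of testis (purple), brain (green) and liver (orange) as points and the median as a bar. Cox6b2, Cox7b2 and Cox8c were high in testis (medians 12058.5, 6432.5 and 10720.5) and Cox6b1 and Cox8a low there (1751.5 and 1608), while levels of different probe sets cannot be set against each other.

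The muscle isoforms were dim in all 3 tissues. Cox6a2 had 84 to 257 in testis, 175 to 555 in brain and 224 to 951 in liver. Cox7a1 had 34 to 189 in testis, 83 to 182 in brain and 100 to 463 in liver. Cox8b had 14 to 71 in testis, 15 to 105 in brain and 18 to 261 in liver, and passed the filter in liver alone. Liver arrays thus spread widely for all 3.

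Skeletal muscle markers spread over the same livers. The summed signal of Acta1, Ckm, Myh4, Tnnt3 and Myl1 ranged from 276 to 10993 in liver, against 319 to 620 in testis and 448 to 985 in brain, with none of the 5 genes listed at 0. In musculus x castaneus F1 livers the sum was 276 in replicate 1 and 10762 in replicate 2, and Cox6a2 had 308 and 951, Cox7a1 158 and 463, and Cox8b 18 and 261 in the same order. In domesticus livers the sum was 278 and 10993, and Cox6a2 had 293 and 522, Cox7a1 100 and 307, and Cox8b 25 and 228. In castaneus livers the sum was 3777 and 9569, and Cox6a2 had 528 and 602, Cox7a1 236 and 280, and Cox8b 51 and 133. In castaneus x musculus F1 livers the sum was 2170 and 830, while Cox6a2 had 404 and 398, Cox7a1 376 and 444, and Cox8b 90 and 167. In musculus livers the sum was 1597 and 3822, and Cox6a2 had 286 and 535, Cox7a1 388 and 304, and Cox8b 126 and 163. Cox7a1 was therefore not ordered by the muscle sum in the last 2 groups, nor was Cox8b in castaneus x musculus F1 livers. The sum of 2 brown fat markers in liver was 28 to 385 and the white fat marker Adipoq had 14 to 219, both highest in castaneus x musculus F1 replicate 2. The part of muscle or fat in these liver values was not tested.

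In complex I, Ndufa4 and Ndufb11 were low in testis and Ndufa4l2 and Ndufb1 high. Ndufa4, named as a complex I subunit and since assigned to complex IV, had 767 to 2657 (median 1110.5) in testis, against 7443 to 10794 (median 9290) in brain and 11273 to 16440 (median 14526) in liver. Read through the brightest probe set of each gene, it had the lowest difference of the 62 genes tested in both testis comparisons, -2.93 from brain and -3.56 from liver. The rank against liver depends on that choice: Ndufs8 probe set 1423907_a_at gave -2.40 from brain and -3.81 from liver. Ndufa4l2, the paralog of Ndufa4 and known as a gene induced in low oxygen, had 461 to 1423 (median 971) in testis, against 99 to 310 (median 233) in brain and 28 to 160 (median 65.5) in liver. The differences were 1.90 and 3.22, and testis arrays stood above all others.

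Ndufb11, an accessory subunit of the membrane arm, was lower in testis by -2.35 from brain and -3.43 from liver (probe set 1455911_x_at), and its other probe sets were low there too. Ndufs7, a core subunit that holds an iron-sulfur cluster, differed by -1.43 and -1.90 in the same order. Ndufb1, an accessory subunit, had 1209 to 2333 in testis, against 384 to 659 in brain and 381 to 624 in liver, and was higher in testis by 1.61 and 1.67. Ndufa12, another accessory subunit, was 0.71 higher in testis than in brain and 0.29 higher than in liver.

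Most of the chain had lower signal in testis than in liver. Between testis and brain, 31 members were higher and 73 lower in testis of 121 tested, while 84.9% of all 27022 tested probe sets were called (34.5% higher and 50.4% lower). Between testis and liver 12 members were higher and 103 lower, with 85% of all probe sets called (39.2% higher and 45.8% lower). The share of members called, 86% and 95%, was thus near or above the background share. The median member difference was -0.29 from brain, against -0.25 for all probe sets, and -0.99 from liver, against -0.11 for all.

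By gene, read through the brightest probe set, all complexes had more genes lower than higher in testis. Against liver, complex I had 3 genes higher and 29 lower of 34 tested (median -0.98), complex II 4 of 4 lower (median -1.76), complex III 8 of 8 lower (median -1.27) and complex IV 3 higher and 13 lower of 16 (median -0.76). Against brain, complex I had 9 higher and 21 lower (median -0.30), complex II 4 of 4 lower (median -0.43), complex III 2 higher and 3 lower (median -0.06) and complex IV 5 higher and 8 lower (median -0.18). Of all probe sets, 34.5% were higher and 50.4% lower against brain, with a median of -0.25. As deposited, complexes III and IV thus lay above the median of all. Uqcr11, a small complex III subunit, fell furthest in that complex, by -1.41 from brain and -2.56 from liver.

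Complex II showed the same order of tissues in each of its 4 genes. Sdhd, a membrane anchor subunit, had 1056 to 2172 in testis, 1660 to 2744 in brain and 5717 to 10479 in liver, and was lower in testis than in liver by a log2 difference of -2.31. Sdhb, the iron-sulfur subunit, had 4435 to 6004 in testis, 5188 to 6986 in brain and 11816 to 17074 in liver. Sdha, the flavoprotein that oxidises succinate, differed between testis and brain by -0.33 through probe set 1426688_at and by -2.61 through 1426689_s_at. The size of its testis difference therefore depends on the probe set.

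The direction between brain and liver depended on the scaling. As deposited, 9 members were higher and 99 lower in brain than in liver, with 82.2% of all probe sets called (45.4% higher and 36.8% lower), and the member median was -0.65 against 0.10 for all. After quantile normalization 39 were higher and 50 lower (73.6%), with 83.9% of all probe sets called (10332 higher and 12326 lower). The member median was then -0.05 against -0.11, and 45 members called in at least 1 of the fits had the other sign. Complex II stayed lower in brain for 4 of 4 genes in both (median -1.25 as deposited, -0.68 quantile normalized), and complex III for 8 of 8 and 6 of 8. Complex IV had 3 higher and 11 lower as deposited but 9 higher and 4 lower after quantile normalization. In testis, quantile normalization gave 28 members higher and 83 lower than in brain, with 84.9% of all probe sets called (10914 higher and 12039 lower). Against liver it gave 22 and 92, with 86% of all called (10370 higher and 12870 lower). The complex medians against brain became -0.61 for complex I, -0.61 for complex II, -0.32 for complex III and -0.33 for complex IV, with -0.06 for all probe sets. Against liver they became -0.61, -1.42, -0.90 and -0.20 in the same order, with -0.15 for all, so that complex IV (4 genes higher and 9 lower) lay close to the median of all.

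**Figure D2:**
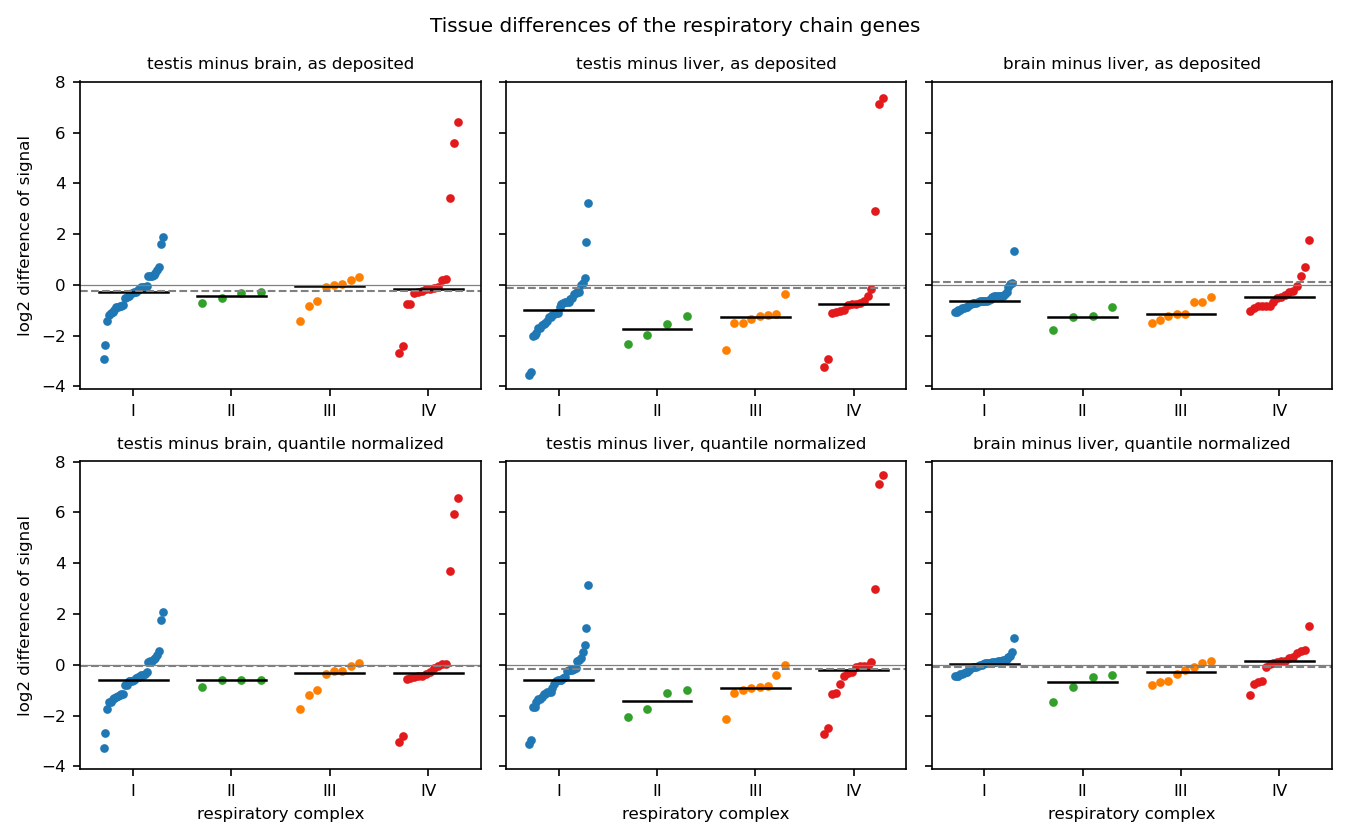
Log2 difference of each respiratory chain gene (brightest probe set) between tissues, by complex, as deposited (top) and after quantile normalization (bottom), with complex medians as black bars, 0 as a solid line and the median of all tested probe sets as a dashed line. Complex II lay below 0 in all panels, Cox7b2 and Cox6b2 were the highest points in both testis comparisons, and the complex IV median between brain and liver was -0.49 in the top row and 0.14 in the bottom row.

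Among other genes of the pathway, cytochrome c also has a testis form. Cyct, the testis cytochrome c, had 3917 to 5445 in testis, against 30 to 113 in brain and 14 to 115 in liver. Cycs, the somatic cytochrome c, had 4758 to 10235 in testis, 10461 to 12702 in brain and 21031 to 27320 in liver. Of 17 ATP synthase genes, 16 were lower and 0 higher in testis than in brain (17 and 0 quantile normalized), and 17 of 17 were lower than in liver in both settings. Of 37 assembly factors, 11 were higher and 20 lower in testis than in brain (13 and 15 quantile normalized), and 6 and 27 against liver (6 and 29). Of 14 regulators of mitochondrial gene expression, 3 were higher and 8 lower than in brain (5 and 6 quantile normalized), and 2 and 9 against liver (1 and 10). Against brain these 2 lists lay near the background split of 34.5% higher and 50.4% lower.

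Between the parental subspecies, calls among the members in brain and liver were few as deposited. In brain 3 members were higher and 3 lower in domesticus than in musculus of 119 tested, which is 5.04%, where 5.75% of all probe sets were called (3.26% higher and 2.48% lower). In brain of castaneus 0 were higher and 4 lower, 3.36% against 6.07% of all (3.12% higher and 2.95% lower). In liver 4 members were higher and 1 lower in domesticus of 120 tested, 4.17% against 6.17% of all (3.16% higher and 3.01% lower). In castaneus liver 0 were higher and 3 lower, 2.5% against 6.55% (3.14% higher and 3.41% lower). Quantile normalization gave 4 higher and 2 lower in domesticus brain (5.04%, with 5.74% of all called) and 0 and 8 in castaneus brain (6.72%, with 6.15% of all). It gave 6 and 5 in domesticus liver (9.17%, with 7.32% of all) and 2 and 13 in castaneus liver (12.5%, with 7.78% of all). The share of members called in liver was thus below the background as deposited and above it after quantile normalization. With 2 males a genotype, leaving out any 1 of the males compared gave 2 calls in domesticus brain, and leaving out 1 gave 2 to 5 in castaneus brain, 2 to 4 in domesticus liver and 1 to 2 in castaneus liver.

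Ndufs5, an accessory subunit of complex I with 1 probe set, was lower in castaneus in every tissue. In testis its signal was 1156 and 1221 in castaneus males and 3713 and 3312 in musculus males. In brain it was 1397 and 1317 in castaneus and 4284 and 4014 in musculus, and in liver 1828 and 1851 in castaneus and 6139 and 5316 in musculus. The log2 differences were -1.54 (SE 0.195, adjusted p = 0.000123 in limma) in testis, -1.59 (SE 0.201, adjusted p = 0.000616) in brain and -1.62 (SE 0.191, adjusted p = 0.000215) in liver, and the groups did not overlap. All 3 calls held under each alternative run, with adjusted p of at most 0.0102.

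F1 males of the castaneus cross had intermediate Ndufs5 signal. In brain castaneus x musculus F1 males had 3531 and 2386 and musculus x castaneus F1 males 2475 and 3520. In liver the F1 values were 5105 and 3718 for castaneus mothers and 3648 and 4415 for musculus mothers. All of these lay above both castaneus males of the tissue and below both musculus males. Ndufs5 was the only one of 113 members called with 1 sign in every tissue between castaneus and musculus, and 1.2% of all probe sets tested in every tissue were so called.

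Between domesticus and musculus, 3 of 113 members were called with 1 sign in every tissue, where 1.13% of all probe sets were. Sdha, probe set 1426688_at, was higher in domesticus: 4336 and 3419 against 2962 and 2620 in testis, 6582 and 5971 against 3441 and 3356 in brain, and 12741 and 10635 against 5965 and 6665 in liver. The differences were 0.46, 0.88 and 0.88 (adjusted p = 0.0403, 0.00223 and 0.00666 in limma). The testis call was lost without the 2 musculus x castaneus F1 testes (adjusted p = 0.0516) and without domesticus replicate 1 or either musculus male (0.0707 to 0.331). The liver call was lost without replicate 1 of domesticus (0.0617) or musculus (0.0742). A second Sdha probe set, 1426689_s_at, gave -0.41, 0.14 and 0.21 in testis, brain and liver, and 1433293_at gave -0.96 in brain and -0.83 in liver, none of them called.

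Uqcrc2, a core protein of complex III, was higher in domesticus through probe set 1435757_a_at: 3328 and 3379 against 2002 and 2452 in testis, 6585 and 5997 against 3034 and 3652 in brain, and 9168 and 8420 against 4316 and 4445 in liver. The differences were 0.59, 0.91 and 1.00. Its brighter probe set 1428631_a_at gave -0.51 in testis, a call in the other direction, and 0.25 and 0.27 in brain and liver, which did not pass the test. The probe sets of Uqcrc2 thus disagree in testis.

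Ndufa7, an accessory subunit of complex I, was lower in domesticus through probe set 1455749_x_at: 679 and 713 against 1003 and 1161 in testis, 412 and 389 against 733 and 710 in brain, and 614 and 839 against 3422 and 3061 in liver. The differences were -0.61, -0.80 and -2.12. Probe set 1436567_a_at was also lower in domesticus in testis (-0.89) and brain (-0.78). The brightest of its 5 probe sets was called in none of the tissues. For these 3 genes and Ndufs5, whether a sequence difference under the probes moves the signal was not tested.

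**Figure D3:**
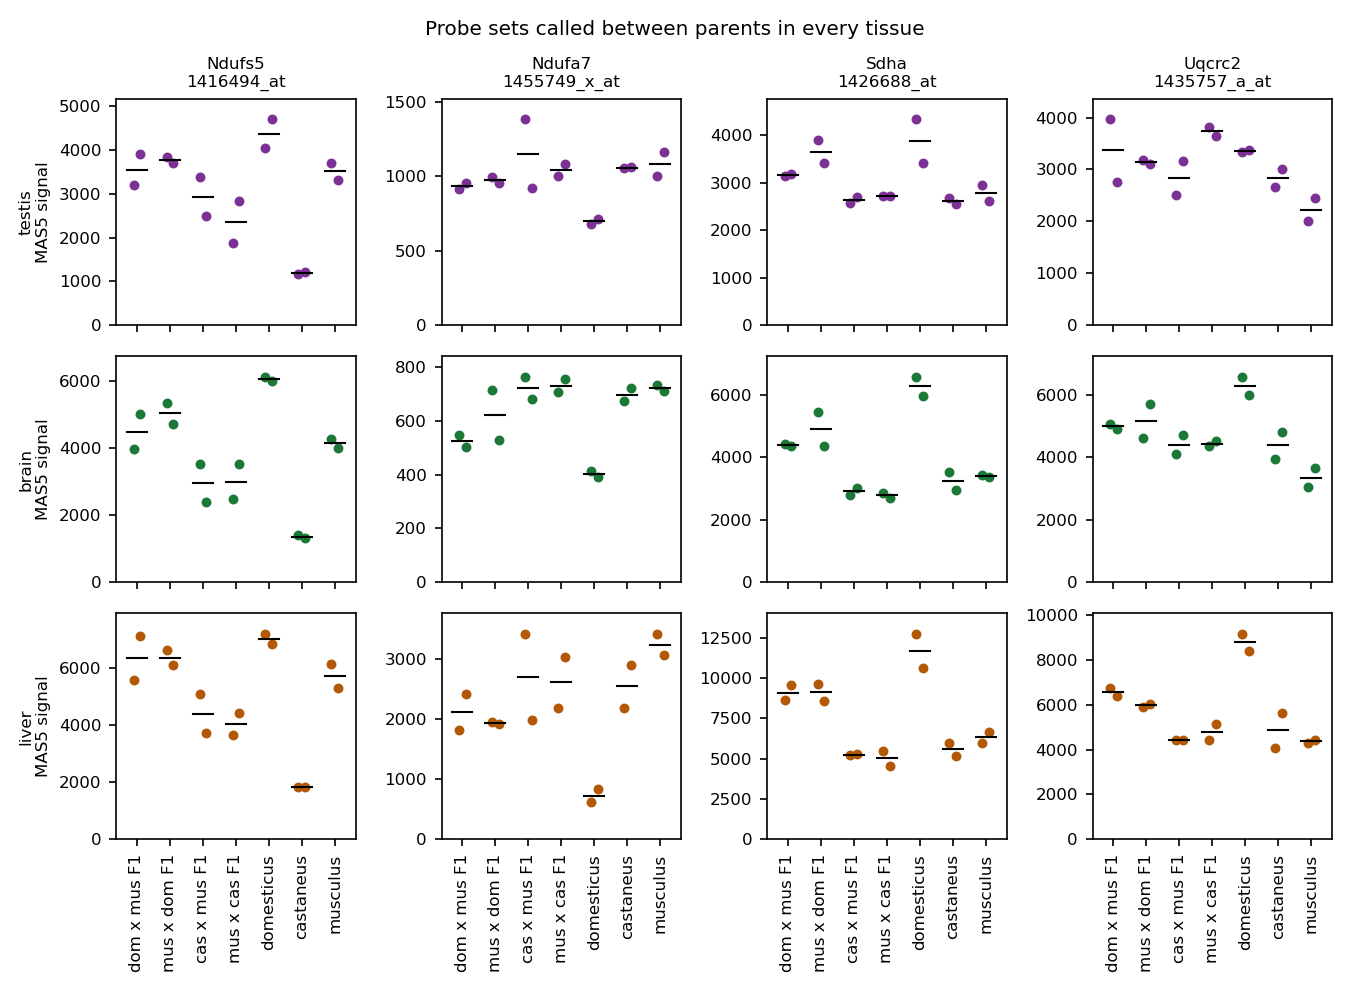
MAS5 signal of the 4 probe sets called between parents in testis, brain and liver, by genotype (mother first in the F1 names), with the 2 males as points, their mean as a bar and axes from 0. Castaneus lay lowest for Ndufs5 (1397 and 1317 in brain), domesticus highest for Sdha and lowest for Ndufa7 (12741 and 10635, and 614 and 839, in liver).

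Other parental calls in brain and liver did not extend to every tissue. Ndufc1, an accessory subunit of complex I, was lower in castaneus through 1448284_a_at, with 2572 and 3429 against 7033 and 7061 in brain (-1.24) and 3746 and 5340 against 10154 and 9664 in testis (-1.14). Its other probe set, 1416285_at, gave -0.11 and -0.10. Ndufa2, an accessory subunit with 1 probe set, had 2739 and 3575 in castaneus brain and 4930 and 5279 in musculus brain (-0.70). It was also called in castaneus testis (-0.90) and gave -0.40 in castaneus liver, which was not called. Sdhd, a complex II anchor, had 5846 and 5717 in castaneus liver and 10479 and 9218 in musculus liver (-0.76, adjusted p = 0.0111 in limma), and its second probe set -0.19. Cox8c had 1499 and 2259 in domesticus liver and 687 and 995 in musculus liver (1.12), and its second probe set -0.97. The remaining calls were Ndufs4 (-0.52) and Cox7c (0.70) in domesticus brain, Ndufb11 1416056_a_at (-0.81) in castaneus brain, Ndufa12 (0.60) in domesticus liver and Ndufs8 1434212_at (-1.06) in castaneus liver.

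Sums of some cell type markers differed between these groups. In domesticus brain the astrocyte marker sum was 18644 and 17893, against 14218 and 14018 in musculus brain. The summed neuron markers were 42294 and 43746 in castaneus brain and 51179 and 50971 in musculus brain, with none of 5 genes listed at 0. The sum of both Kupffer cell markers was 4326 and 4605 in domesticus liver, 6726 and 8066 in castaneus liver and 3615 and 3713 in musculus liver. No single marker gene of these cell types was called in these comparisons. The smallest adjusted p in limma was 0.0704 for astrocytes (Slc1a2), 0.0812 for neurons (Snap25) and 0.0587 for Kupffer cells (Cd5l, castaneus). Gfap gave -0.06 in domesticus brain, against the direction of the other astrocyte markers. The part of these markers in the parental differences was not tested.

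In testis more members differed between the parents, as did more of all probe sets. Against musculus, 6 members were higher and 11 lower in domesticus of 117 tested, 14.5% where 12.8% of all were called (6.95% higher and 5.86% lower). In castaneus 3 were higher and 14 lower, again 14.5%, where 13.5% of all were called (7.48% higher and 6% lower). Quantile normalization gave 1 higher and 16 lower in castaneus (14.5%, with 14.1% of all called). Both shares as deposited were near the background. Without the 2 musculus x castaneus F1 testes 15 members were called in each comparison. Leaving out 1 parental male gave 7 to 10 calls in domesticus testis and 2 to 9 in castaneus testis, the lowest without castaneus replicate 1.

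In complex I, the accessory subunit Ndufb9 was lower in both subspecies through both of its tested probe sets. Probe set 1452184_at had 5168 and 5652 in domesticus, 4760 and 6646 in castaneus, and 10132 and 10010 in musculus, with differences of -0.89 and -0.84. Ndufb2, probe set 1448483_a_at, had 3465 and 3477 in domesticus, 2831 and 3704 in castaneus, and 5650 and 5178 in musculus, with differences of -0.63 and -0.73. Ndufa9 was lower in both as well (-0.47 and -0.42). Castaneus testis had lower Ndufa2 (3364 and 4487 against 7563 and 7042 in musculus, -0.90) and Ndufv3 (1617 and 1857 against 3074 and 2683, -0.72).

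Ndufv2, a core subunit with an iron-sulfur cluster near the NADH site, was higher in domesticus testis. Probe set 1438159_x_at had 8810 and 8896 in domesticus and 2729 and 2479 in musculus (1.75, SE 0.278, adjusted p = 0.000754 in limma). F1 males of that cross had 7312 and 8090 with domesticus mothers and 7380 and 6454 with musculus mothers. Probe set 1452692_a_at gave 0.81, also a call, and the brightest, 1428179_at, gave 0.28 and no call. The F1 values of the first lay nearer to domesticus than to musculus, and the F1 mean was not called against the midparent.

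Among complex IV genes Cox6b2, the testis isoform, had 9070 and 9028 in domesticus testis and 14879 and 17970 in musculus testis (-0.85, adjusted p = 0.00643 in limma, and 0.0745 without musculus replicate 2). Cox7b2 had 5031 and 6022 in castaneus testis and 7272 and 7789 in musculus testis (-0.45). Cox7a1, the muscle isoform, was higher in both: 128 and 189 in domesticus, 122 and 148 in castaneus, and 67 and 34 in musculus, with differences of 1.23 and 1.05 near the low end of the signal range. In complex III, Uqcr10 and Uqcrh, the hinge protein, were lower in castaneus testis (-0.51 and -0.61). The dimmer Uqcr10 probe set, 1434341_x_at, was higher in domesticus testis (1.28) and its brighter one gave -0.12.

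The summed Leydig cell markers also differed between the parental testes. The sum of the 2 with probe sets, of 4 listed, was 5717 and 6495 in domesticus, 7824 and 5572 in castaneus, and 2353 and 3212 in musculus, while the spermatid sum was 95689 and 90564 in domesticus, 71374 and 86786 in castaneus, and 93844 and 109546 in musculus. The 2 Leydig markers did not move together. Cyp17a1 was called higher in domesticus (1.35) and castaneus (1.49) than in musculus, while Star gave -0.20 and -0.39 and was not called. The part of these markers in the testis differences was not tested.

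In brain and liver no member was called between reciprocal F1 males. For the domesticus cross limma called 0 of 119 members in brain, where 0.0222% of all probe sets were called, 0 of 120 in liver (0.0888%) and 0 of 117 in testis (0.204%). Unadjusted p was under 0.05 for 3 members in each of the tissues. For the castaneus cross it called 0 in brain (0.0111% of all) and 0 in liver (0.037%), with 3 and 1 members under 0.05 unadjusted. So few probe sets of any kind were called that these counts say little about the members alone.

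The 95% intervals give the precision of single differences, without correction over all probe sets. They do not give the smallest difference that could have been called. The median half-width of the 95% interval of a reciprocal difference was 0.36 in brain, 0.44 in liver and 0.36 in testis. For the domesticus cross the whole interval lay within 1 log2 unit of 0 for 116 of 119 members in brain, 106 of 120 in liver and 116 of 117 in testis. For the castaneus cross this held for 115, 112 and 106 members. Member differences for the domesticus cross ran from -0.61 to 0.23 in brain, from -0.99 to 0.40 in liver and from -0.50 to 0.36 in testis. In brain their median was -0.17 against 0.00 for all probe sets, and -0.09 after quantile normalization.

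The mean of both F1 genotypes was between the parental means for 6 of 6 members with a parental call in domesticus brain, where this held for 98.5% of all probe sets with such a call, and for 4 of 4 in castaneus brain (96.5% of all). In liver it held for 5 of 5 in the domesticus cross (96.8% of all) and 3 of 3 in the castaneus cross (94.7%). In testis it held for 17 of 17 in the domesticus cross (97.6%) and 16 of 17 in the castaneus cross (76.9%). Members and background were chosen for a large parental difference, and nothing particular to the members is read from these counts. The reciprocal difference had the sign of the parental one for 3 of 6 and 4 of 4 such members in brain, 2 of 5 and 1 of 3 in liver, and 9 of 17 and 4 of 17 in testis, domesticus cross first.

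**Figure D4:**
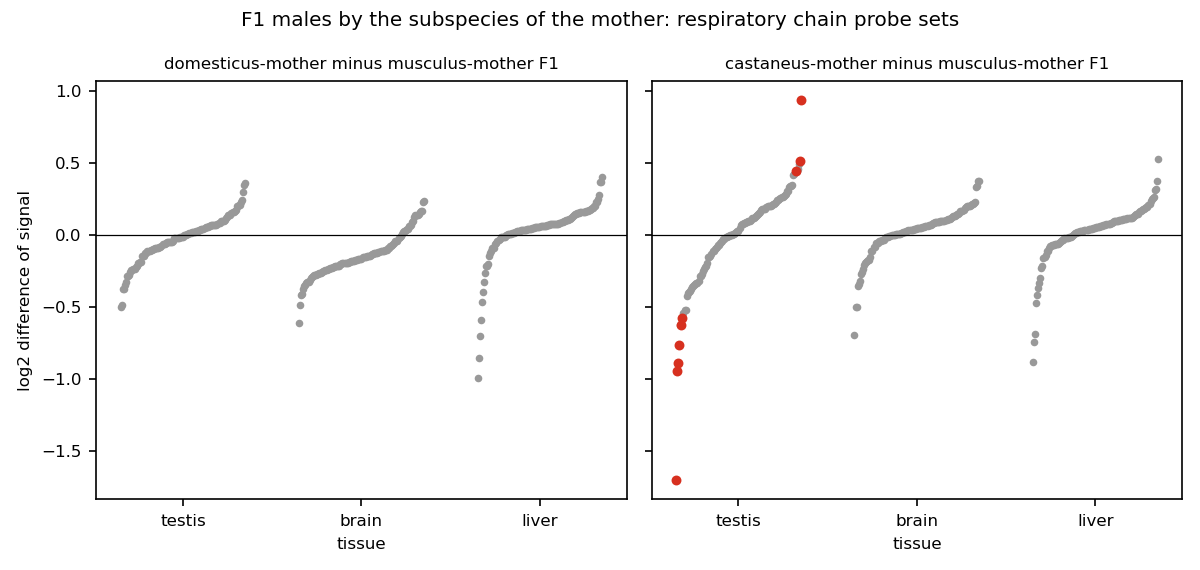
Log2 difference of every tested respiratory chain probe set between F1 males with domesticus and musculus mothers (left) and with castaneus and musculus mothers (right), sorted within testis, brain and liver, with calls in red. All 9 red points lie in testis of the castaneus cross, from -1.70 to 0.93.

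Ndufb11 and Ndufa1 are known to lie on the X chromosome, which a son receives from his mother. In brain, Ndufb11 probe set 1416056_a_at had 4488 and 3935 in castaneus x musculus F1 and 6099 and 7631 in musculus x castaneus F1, and 3339 and 4246 in castaneus and 6996 and 6303 in musculus. In liver it had 9661 and 7469 and 12698 and 16040 in the F1 males, and 8235 and 10676 in castaneus and 15922 and 14235 in musculus. In both tissues every F1 male of a castaneus mother was below every F1 male of a musculus mother, and the same held for the parents.

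The reciprocal difference of this probe set was -0.69 in brain (95% interval -1.04 to -0.35, adjusted p = 0.566 in limma) and -0.75 in liver (-1.19 to -0.31, adjusted p = 0.727). It thus failed the correction over all probe sets in both, and passed it in liver after quantile normalization (-0.80, adjusted p = 0.0455). The parental difference was a call in brain (-0.81, adjusted p = 0.0093) but not in liver (-0.68, adjusted p = 0.0678). The other Ndufb11 probe sets gave reciprocal differences of 0.33 and 0.37 in brain and 0.15 and -0.06 in liver. Ndufa1, with 1 probe set, gave 0.05 in each of these tissues.

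**Figure D5:**
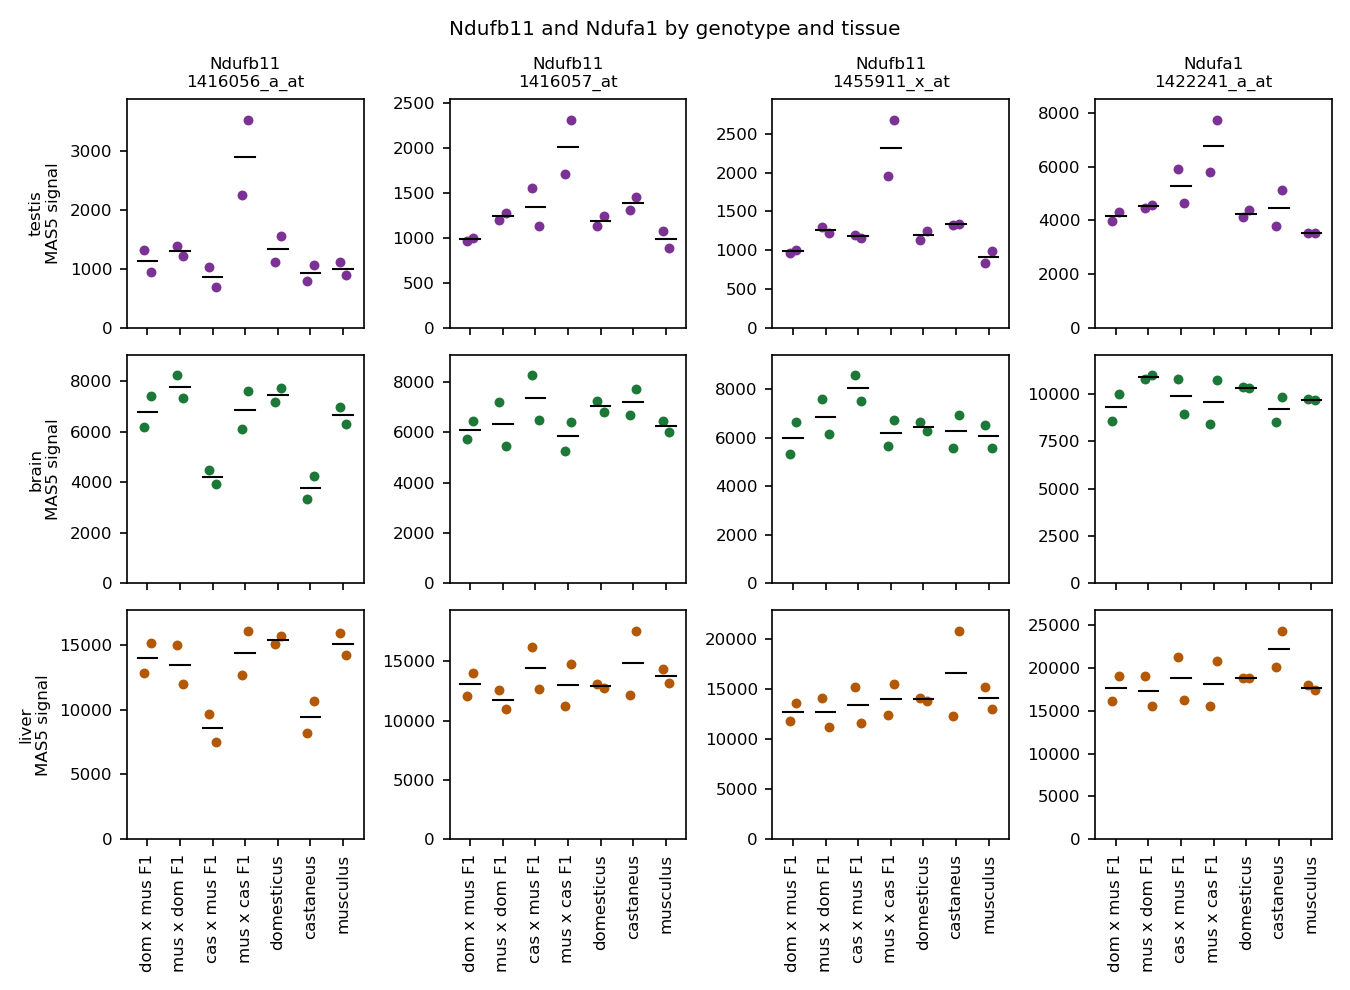
MAS5 signal of 3 Ndufb11 probe sets and Ndufa1 in testis, brain and liver, by genotype with the mother first in the F1 names, with the 2 males as points, their mean as a bar and axes from 0. In brain and liver the first probe set was low in castaneus x musculus F1 (4488 and 3935 in brain) and castaneus, and in testis all 3 were highest in musculus x castaneus F1 (2253 and 3537 for the first).

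In testis of the castaneus cross 9 of 117 members were called between reciprocal F1 males, 3 higher and 6 lower with a castaneus mother. That is 7.69%, where 28.4% of all probe sets were called (10.6% higher and 17.9% lower). The median of all probe sets was itself shifted by -0.24 and that of the members by 0.02. After quantile normalization 2 members were higher and 15 lower, which is 14.5%, where 22.6% of all probe sets were called (3381 higher and 2739 lower). The medians were then -0.03 for all probe sets and -0.10 for the members. Without musculus x castaneus F1 replicate 2, 5 members were called.

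All 3 Ndufb11 probe sets were lower in castaneus x musculus F1 testis. Probe set 1416056_a_at had 1029 and 694, against 2253 and 3537 in musculus x castaneus F1, a difference of -1.70 (SE 0.262, adjusted p = 0.000594 in limma). The others differed by -0.95 and -0.58. Between the parental testes, castaneus minus musculus gave -0.11 for 1416056_a_at and 0.48 for 1416057_at, neither called. Probe set 1455911_x_at gave 0.535 there, a call (adjusted p = 0.037 in limma) with the sign opposite to its reciprocal difference. Ndufa4 had 1410 and 1091, against 2033 and 2657 (-0.89). Ndufs8, a core subunit with iron-sulfur clusters, had 1485 and 1357 through 1423907_a_at, against 1923 and 2537 (-0.63), and its other 5 probe sets were not called. Cox8a had 1403 and 977 through 1416112_at, against 1521 and 2671 (-0.77, adjusted p = 0.042).

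Higher with castaneus mothers were Ndufb1, with 2333 and 1932 against 1223 and 1800 (0.51), and Uqcr10 1434341_x_at, with 935 and 1651 against 657 and 619 (0.93). A Cox7a2l probe set, 1432264_x_at, was 0.44 higher. The testis isoforms Cox6b2 and Cox8c were not called, with 13953 and 12169 against 10550 and 11534 for Cox6b2 and 10541 and 9072 against 8244 and 8761 for Cox8c.

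Marker sums of some other testis cells moved with the same contrast. In castaneus x musculus F1 the spermatogonial sum was 1817 and 1925, against 3462 and 3170 in musculus x castaneus F1. Sums for Sertoli cells were 13342 and 12419 against 18877 and 19994, for Leydig cells 4867 and 3805 against 9506 and 9568, and for macrophages 768 and 823 against 1444 and 1499. Spermatid sums were 74255 and 68250 against 66091 and 58878. Of these markers Acrv1 (0.88) and Odf1 (0.99) were called, and the others, among them Prm1 (-0.15) and Tnp1 (0.02), were not. Spermatocyte sums overlapped, with 47042 and 45449 against 46887 and 43923. Among their genes Sycp1 was called lower (-0.66) and Pgk2 higher (0.60) with castaneus mothers. None of the marker genes measured was listed at 0, and their part in the reciprocal result was not tested.

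No member was called between F1 males and the midparent in 5 of the 6 tissue and cross combinations. Limma called 0 members in brain (0.137% of all probe sets in each cross), 0 in liver (0.178% and 0.241%) and 0 in testis of the domesticus cross (0.414%), with 2 to 4 members at an unadjusted p under 0.05. In testis of the castaneus cross 11 members were higher and 1 lower than the midparent of 117, 10.3% where 17.4% of all were called (9.56% higher and 7.88% lower). Counted against the midparent alone, castaneus x musculus F1 had 0 members called and musculus x castaneus F1, whose 2 testes stood apart as described above, had 21. The share of all probe sets called for each F1 genotype alone is not given here, so these 2 counts are not read as particular to the members. The comparison gave 5 calls without replicate 2 of musculus x castaneus F1 or of musculus, or without castaneus replicate 1. The raised members were Ndufb11 (3 probe sets, 0.47 to 0.68), Ndufa4 (0.62), Ndufa1 (0.59), Cox6b1 (0.54), Ndufs8, Ndufb6, Ndufc2, Sdhc and Sdhd, and Uqcr10 1434341_x_at was the lower one. Ndufb6, an accessory subunit of complex I, was the only one with no overlap: 4700 and 4416 in castaneus x musculus F1, 4880 and 6371 in musculus x castaneus F1, 3356 and 4160 in castaneus and 3725 and 3315 in musculus. For Cox6b1, signals were 2871 and 1775 in castaneus x musculus F1, 2564 and 4155 in musculus x castaneus F1, 2140 and 2598 in castaneus and 1728 and 1249 in musculus. Some of the same marker sums moved with this comparison, and their part was not tested.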

How the data were processed

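Total RNA of whole tissue was hybridised to Affymetrix 430 2.0 arrays, 1 colour, 1 array per tissue and male. According to the submitters' processing notes, the deposited intensity values are linear MAS5 signals, 1 per probe set. Version, background settings and detection flags of that step are not given. MAS5 reads perfect match against mismatch probes, so sequence differences from the probes can alter a signal. The number of arrays limits the precision. Platform annotation, which can be old, gave 1 symbol to 34945 probe sets, several to 932 and none to 9160, and 9 probe sets with several symbols that fit the rule were left out.

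An offset of 31, the 20th percentile of the whole table, was added before log2. Within a tissue, the 27022 probe sets whose mean log2 signal reached the 40th percentile were fitted over 14 arrays with genotype as the factor (limma 3.58.1, R 4.3.3, intensity trend, 7 residual degrees of freedom). Tissues were compared over 42 arrays and 21 groups. Dependence on tissue was an F test over 20178 probe sets with the animal as a random block (correlation 0.293). Arrays of 1 animal deviated together in 21 of 21 tissue pairs within a genotype (0.159 to 0.476), which is the basis of that block. The fits were tested on simulated data.

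The members and lists were chosen with earlier results of these data known. Named members were the isoforms with their partners, complex II, the extremes of each tissue comparison, and up to 6 called members without the suffix _x_at and without overlap per comparison. X-linked members were taken from general knowledge because no chromosome table was used, and other members named were chosen after their values were seen. Alternatives were offsets of 10 and 100, no filter, a filter at the 60th percentile, quantile normalization, replicate blocks, a linear midparent and leaving out each replicate. No sequences were used.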

Additional observations from a re-analysis of the deposited data

Results flagged for a closer look

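A difference between tissues was found by the test of dependence on tissue itself for 25 combinations of member and comparison. The log2 differences below are in the order testis, brain, liver, and each adjusted p is from limma over all probe sets tested in every tissue. Each result is for the probe set named. Apart from the Ndufb9, Ndufs8 and Ndufb11 probe sets given below, no other probe set of these genes was called in the same comparison.

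For domesticus minus musculus 11 of 113 members depended on tissue (9.73%, where 12.4% of all probe sets did), and 7 without the animal as a block. Both Ndufb9 probe sets were lower in testis alone: 1452184_at gave -0.89, 0.08 and 0.21 (adjusted p = 0.000535) and 1436803_a_at gave -0.74, 0.26 and 0.24 (adjusted p = 0.00133). Ndufa9 gave -0.47, 0.10 and -0.04 (adjusted p = 0.0241). Ndufv2 1438159_x_at was raised most in testis, at 1.75, 0.31 and 0.48 (adjusted p = 0.00203), while Ndufv2 1452692_a_at gave 0.81, 0.59 and 0.56 (adjusted p = 0.588). Ndufa7 1455749_x_at was lowest in liver, at -0.61, -0.80 and -2.12 (adjusted p = 9.83e-05). Ndufc1 1416285_at gave 0.12, 0.16 and 0.77 (adjusted p = 0.0385).

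In complex III of the same comparison, Uqcrc2 1428631_a_at gave -0.51, 0.25 and 0.27 (adjusted p = 0.000748), Uqcr10 1434341_x_at 1.28, -0.08 and -0.13 (adjusted p = 0.00576) and Uqcrc1, a core protein, -0.01, 0.02 and 0.53 (adjusted p = 0.0432). The other Uqcrc2 probe set, 1435757_a_at, gave 0.59, 0.91 and 1.00 (adjusted p = 0.273). In complex IV, Cox7a1 gave 1.23, 0.41 and -0.83 (adjusted p = 0.00647) and Cox8c 1455167_at -0.06, 0.36 and 1.12 (adjusted p = 0.0247).

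For castaneus minus musculus 6 of 113 did (5.31%, where 13.8% of all did), 2 without the block and 11 after quantile normalization. Ndufb9 again stood out in testis, with -0.84, -0.05 and 0.19 (adjusted p = 0.00199) and -0.68, 0.00 and 0.29 (adjusted p = 0.00582). Ndufc1 1416285_at gave -0.10, -0.11 and 0.81 (adjusted p = 0.00151), while Ndufc1 1448284_a_at gave -1.14, -1.24 and -0.90 (adjusted p = 0.643). Ndufs8 gave 0.52, -0.31 and -0.21 through 1434213_x_at (adjusted p = 0.0095) and 0.19, -0.29 and -1.06 through 1434212_at (adjusted p = 0.0245). Uqcr10 1424364_a_at gave -0.51, -0.10 and 0.17 (adjusted p = 0.0336).

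For castaneus-mother minus musculus-mother F1 8 of 113 did (7.08%, where 18% of all did), 2 without the block and 16 after quantile normalization. Each of the 8 was lowest or highest in testis. Ndufa4 gave -0.89, 0.20 and 0.06 (adjusted p = 0.000303). The 3 Ndufb11 probe sets gave -0.95, 0.37 and -0.06 for 1455911_x_at (adjusted p = 0.000492), -0.58, 0.33 and 0.15 for 1416057_at (adjusted p = 0.00441) and -1.70, -0.69 and -0.75 for 1416056_a_at (adjusted p = 0.00581). Ndufs8 1423907_a_at gave -0.63, 0.20 and 0.04 (adjusted p = 0.0108), Cox8a 1416112_at -0.77, -0.04 and 0.08 (adjusted p = 0.0317), Uqcr10 1434341_x_at 0.93, -0.24 and 0.02 (adjusted p = 0.0351) and Sdhd 1428235_at -0.34, 0.38 and 0.18 (adjusted p = 0.0468). The testis term rests on the 2 musculus x castaneus F1 testes that stood apart. For domesticus-mother minus musculus-mother F1 0 of 113 did (1.95% of all), with 4 at an unadjusted p under 0.05.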

How the results depend on the processing

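With 2 males a group, counts of parental calls were unstable. Leaving out each replicate in turn gave 2 in each case for domesticus brain (6 with all arrays), 2 to 5 for castaneus brain (4), 2 to 4 for domesticus liver (5), 1 to 2 for castaneus liver (3), 7 to 10 for domesticus testis (17) and 2 to 9 for castaneus testis (17), the lowest without castaneus replicate 1. The counts fell by over 1.5 times without any male compared in domesticus brain and in either testis comparison, without replicate 1 of castaneus or musculus in castaneus brain, without either domesticus male or musculus replicate 1 in domesticus liver, and without either castaneus male or musculus replicate 1 in castaneus liver. It gave 5 to 12 for the castaneus cross in testis, both against the midparent (12) and between reciprocal F1 (9), with 5 called in both without musculus x castaneus F1 replicate 2, and 101 to 104, 113 to 116 and 106 to 109 for testis minus brain, testis minus liver and brain minus liver. The 10 comparisons with 0 calls stayed at 0 where a replicate was left out.

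Quantile normalization moved counts to 8 (castaneus brain), 11 (domesticus liver), 15 (castaneus liver), 1 (castaneus cross, reciprocal, liver) and 17 (same, testis), and to 11 and 16 for dependence on tissue of the castaneus parental and reciprocal differences. It turned the sign of Cox7a2 between testis and brain (-0.042) and testis and liver (0.115), and between brain and liver of Ndufb1 (-0.319), Cox7a2 (0.157), Cox6a1 (0.152), Cox4i1 (0.454), Cox6b1 (0.076), Cox8a (0.554) and Cox7a2l (0.299). The cause was not tested.

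Chosen after seeing the data, F1 genotypes of the castaneus cross taken alone gave 0 (castaneus mother) and 21 (musculus mother) members called against the midparent in testis. The share of all probe sets called is not given here for either. Without the animal as a block (no replicate block), dependence on tissue was called for 7, 2 and 2 members in place of 11, 6 and 8. The replicate number as a block left 5 calls in domesticus brain, where Ndufs4 was lost (adjusted p = 0.0503 in limma), and 10 between reciprocal F1 of the castaneus cross in testis. Same-numbered males of different genotypes deviated together in 13, 9 and 10 of 21 pairs in brain, liver and testis (-0.473 to 0.527). Whether same-numbered males share more than a number was not tested. Other offsets and filters moved no count by over 1.5 times. Of the single members named, 2476 values kept direction and side of the threshold under these alternatives, 78 lost and 12 gained the call, and 9 changed sign.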
